A study of Mus musculus with 78 samples.

Results

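The comparison described here sets mouse flank tissue 5 days into an adenoviral VEGF model, with no antibody given, against flank tissue labelled as control at day 0. Its members were taken from the source label of each sample: 8 arrays carried the label for flank, Ad-VEGF-A164, day 5 and no treatment, and 8 carried the label for control flank at day 0. They are 16 of the 78 arrays of the series, and 14718 genes were tested between them. The other arrays hold untreated tissue at days 20 and 60 (8 each), which is used below only for comparison with day 5, and tissue of antibody-treated mice, which entered the statistical model only.

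All animals were female athymic nude mice, 4 to 6 weeks old, of the Charles River stock Crl:NU(NCr)-Foxn1nu. The homozygous Foxn1 mutation of that stock leaves the mice with no functional thymus, hence few T cells, and with abnormal hair, and both groups carry it. Ad-VEGF-A164, an adenovirus that makes cells express the VEGF-A164 isoform, was injected into flank skin and also into the ears of the same mice. No group received an empty virus, and the labels do not say that control flank was left uninjected, so the response to VEGF and the response to virus and needle cannot be told apart. The submitters planned for 5 or more animals in a group, but no label says which animal an array came from. If arrays share an animal, the p-values are too small. Arrays next to each other in the numbering (1 and 2, 3 and 4, and so on) deviated from their group's mean more alike, on average, than other pairs: the correlations of their deviations across probe sets averaged 0.13 in control and 0.11 at day 5, against -0.18 for other pairs in each group. Whether such neighbours share an animal was not tested; with each pair averaged, 4 samples a group, 7079 of the genes below were called in place of 7772. Arrays are numbered 1 to 8 within each group, in the order of the running numbers in their titles.

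VEGF-A is the main growth signal of blood vessel endothelium. It binds the receptor tyrosine kinases VEGFR1 (Flt1) and VEGFR2 (Kdr) on endothelial cells, makes vessels leaky, and sends leading "tip" cells out of existing vessels, while Notch signalling between neighbouring cells restrains how many cells lead. In skin injected with this virus the vessels first widen, lose part of their basement membrane and pericyte cover and leak plasma, and later give rise to other abnormal vessel types. Flank samples may also hold epidermis, hair follicles, dermis, fat, a thin muscle layer and, in females, mammary tissue. In such bulk samples fewer cells of a type and less RNA per cell cannot be told apart.

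Expression is given as log2(signal + 16), where signal is the array intensity of a gene's brightest probe set, and a difference of 1 in log2 is a 2-fold change. Levels of different genes are not comparable on this scale. Every array had been scaled to the same trimmed mean of 1500. Medians of the raw signal ran from 455 to 537 in control and from 485 to 538 at day 5, and arrays within a group correlated at 0.921 to 0.972. The ratio of 3' to 5' signal of Gapdh, a measure of RNA integrity and labelling, did not overlap between the groups: it was 0.772 to 0.859 in control and 0.907 to 1.10 at day 5. Its part in the results was not tested beyond a fit with the Gapdh and Actb ratios as covariates, which is cited where it ends the call of a named gene. That fit called 6587 genes in place of 7772 and lowered several counts of gene groups given below. Members higher became 10 in place of 14 for VEGFR signalling and 8 in place of 12 for neutrophils and acute inflammation. For the list of erythroid and iron genes, called the iron list below, they became 4 in place of 6. Control array 8 was highest in muscle and respiratory genes and lowest in cell cycle genes, and control arrays 1 and 2 were highest in interferon-stimulated genes. Of the markers that define tissue components, endothelial, fibroblast, macrophage, muscle, fat and keratinocyte genes were all measurable, while the T cell genes Cd3e and Cd3d and the B cell gene Cd79a stayed below the filter on low signal.

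Of the 14718 genes 7772 (52.8%) differed at an adjusted p under 0.05 (limma, two-sided, Benjamini-Hochberg adjusted), 4112 higher at day 5 (27.9%) and 3660 lower (24.9%). With a minimum of 2-fold these were 1310 higher (8.9%) and 1264 lower (8.59%). The 8 day 5 arrays lay wholly above the 8 control arrays for 1903 genes (12.9%) and wholly below for 1882 (12.8%). The median difference over all genes was 0.046. Since about 1 gene in 4 passed in each direction, counts for gene groups below are to be read against those shares. The groups were written with earlier results of these data known, so a count above those shares is a description and no test.

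**Figure D1:**
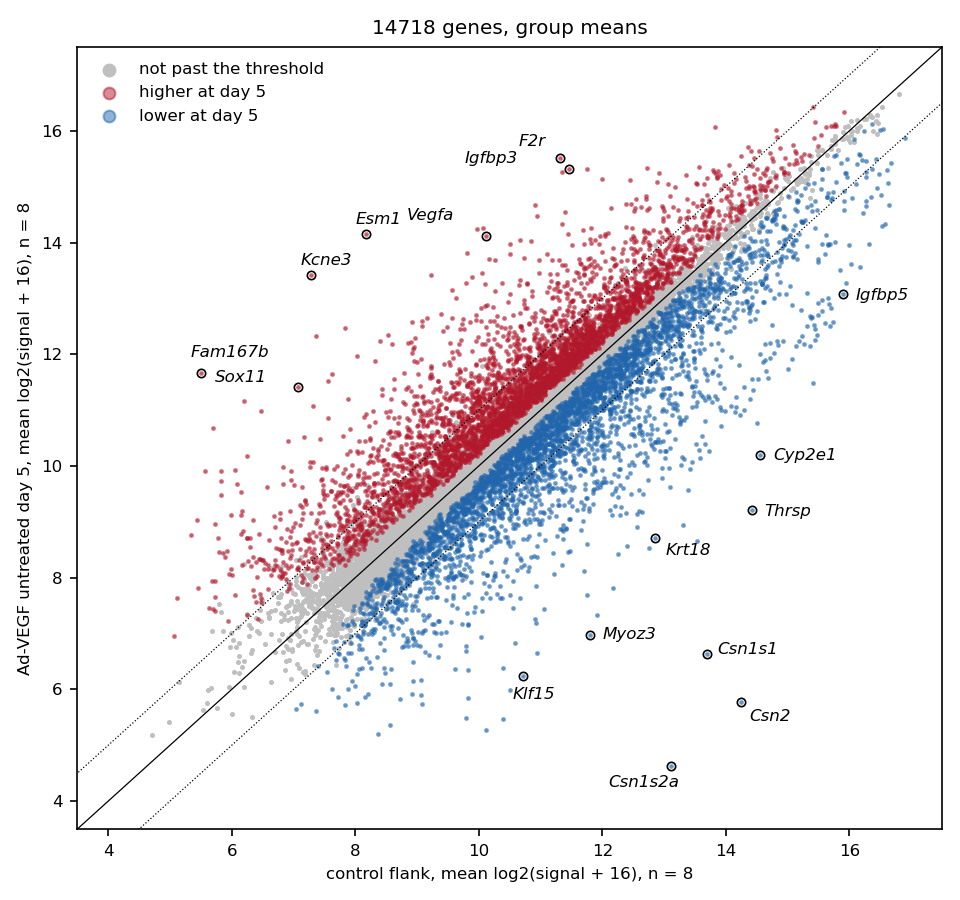
Mean level of each of the 14718 genes in control flank (x axis) and in Ad-VEGF flank at day 5 (y axis), both in log2(signal + 16), n = 8 arrays each; red and blue points passed an adjusted p of 0.05, dotted lines mark 2-fold. Called genes lie on both sides of the diagonal, with Fam167b and Kcne3 at the upper left and the milk protein genes Csn1s2a, Csn1s1 and Csn2 at the lower right. The filter level is 8.44, and 40% of all values lie below it. A fold is given as a bound only where every array of a group lay below that level. Where a mean but not every array lay below it, the difference is given as measured and rests partly on low signal. Examples are Pgf, Ccn4, Dll4, Bcl6b and Foxc2 in control.

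The largest rises joined endothelial, stromal and myeloid genes. Fam167b, a little-studied gene, rose from a control range of 4.77 to 6.25 (median 5.45) to a day 5 range of 11.30 to 12.01 (median 11.63), at least 9.35-fold, where "at least" sets the day 5 mean against the filter level because every control array lay below it. Kcne3, a potassium channel subunit, was 6.18 to 8.04 (median 7.31) in control and 12.89 to 13.79 (median 13.55) at day 5, at least 31.4-fold higher. Neither gene passed the filter level on any control array, and both passed it on all 8 day 5 arrays. Nts, the neuropeptide neurotensin, rose at least 4.71-fold, the connexin gene Gjc1 at least 14.7-fold, Tmem255a at least 16.3-fold, the lymphocyte receptor gene Ly9 at least 2.78-fold and the calcium-activated channel regulator Clca2 at least 8.54-fold. The imprinted gene Mest, which is active in growing mesenchyme, rose by 4.28 (SE 0.22, adjusted p = 1.7e-26), the lowest adjusted p among these genes, and its 8 day 5 arrays (13.67 to 14.73, median 14.35) all lay more than 3 above the highest control array (10.45).

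The VEGF ligands did not move together. Vegfa, by its brightest probe set, was 9.49 to 10.91 (median 10.18) in control and 13.51 to 14.87 (median 14.06) at day 5, a rise of 3.99 (SE 0.39, adjusted p = 9.6e-14). A second Vegfa probe set went the other way, from 11.21 to 12.32 in control to 9.47 to 10.02 at day 5 (-2.03, SE 0.18, adjusted p = 1.8e-15), again with no overlap. Vegfa was the only gene of 341 named by rule with a further probe set called in the opposite direction; 143 of them had a further probe set. Which transcript each probe set reads, injected or endogenous, was not tested. Pgf, the placental growth factor, which among the VEGF receptor kinases binds VEGFR1 alone, rose by 3.05 (SE 0.44, adjusted p = 1.5e-08). Its control arrays spread from 5.98 to 9.34 (median 7.53) and its day 5 arrays drew together at 10.27 to 10.66 (median 10.53). Vegfc, a ligand of the lymphatic receptor VEGFR3, rose by 1.42 (SE 0.27, adjusted p = 9.6e-06), with control array 3, at 10.80, inside the day 5 range of 10.41 to 11.77. Vegfb, also a VEGFR1 ligand and known from muscle, heart and fat, fell by 2.14 (SE 0.31, adjusted p = 1.4e-08), from 11.23 to 12.71 (median 11.62) down to 9.36 to 9.91 (median 9.48). Vegfd stood at 11.54 ± 0.56 (SD, n = 8) in control and 11.30 ± 0.63 (n = 8) at day 5 and was not called (adjusted p = 0.40).

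All 5 VEGF receptors and co-receptors rose, in a list of 10 ligands and receptors with 8 higher, 1 lower and a median of 1.99. Flt1 rose from 9.40 to 10.57 (median 10.38) to 12.84 to 13.69 (median 13.30) and Kdr from 10.06 to 11.11 (median 10.83) to 12.64 to 13.84 (median 13.34). Flt4 (VEGFR3), which marks lymphatic and sprouting endothelium, rose by 3.08 (SE 0.34), and its lowest day 5 array (12.18) lay above the highest control array (10.00) by more than 2 log2 units. The semaphorin and VEGF co-receptor Nrp1 rose by 1.48 (SE 0.22). Nrp2 rose by 0.82 (SE 0.22, adjusted p = 0.0014), its groups touched at 12.75 and 12.71, and with the RNA ratios as covariates it was not called (adjusted p = 0.056).

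In the angiopoietin and apelin systems the destabilising and stabilising sides moved apart. Angiopoietin 2 (Angpt2), which is released by activated endothelium and antagonises Tie2, rose by 2.39 (SE 0.28, adjusted p = 7.3e-11), from 9.06 to 9.94 to 11.43 to 12.06. Angiopoietin 1 (Angpt1), the pericyte-derived Tie2 agonist that quiets vessels, fell by 1.08 (SE 0.15, adjusted p = 7.3e-09), from 9.93 to 10.71 to 9.07 to 9.66. Both separations were complete. Tie1, the orphan partner receptor, rose by 3.60 (SE 0.38), whereas Tek, which encodes Tie2 itself, fell by 0.57 (SE 0.23, adjusted p = 0.033) with overlapping arrays (11.90 to 12.69 in control, 11.45 to 12.04 at day 5). The Tek call was lost without control array 1 (adjusted p = 0.067), control array 2 (0.053) or day 5 array 1 (0.060). The Tie2 phosphatase gene Ptprb rose by 0.99 (SE 0.26). Apelin (Apln), a peptide of tip cells, rose by 1.84 (SE 0.20) and its receptor Aplnr by 2.67 (SE 0.29).

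**Figure D2:**
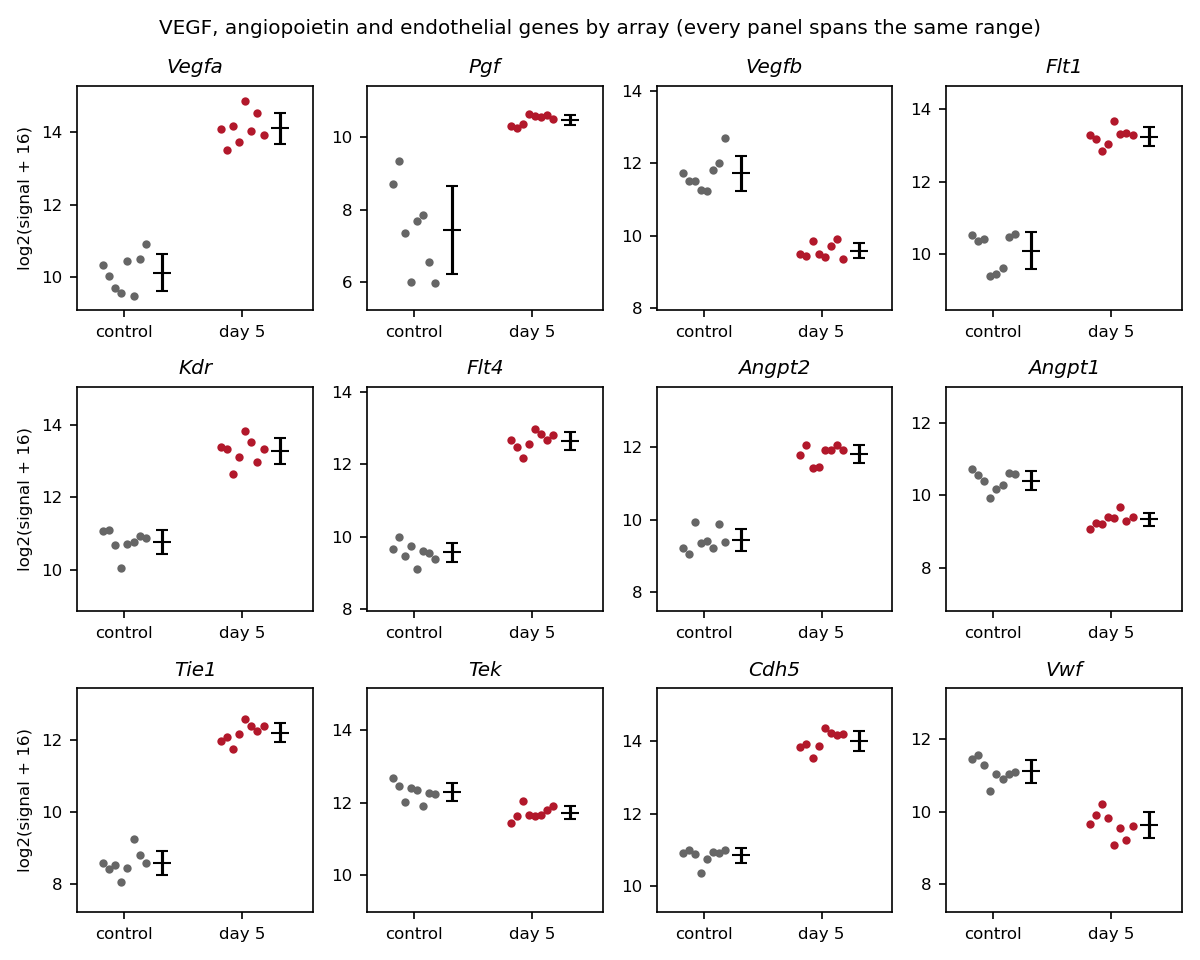
Levels of 12 genes in the 8 control arrays (grey) and 8 day 5 arrays (red), in log2(signal + 16); black marks give mean and SD, and every panel spans the same range. Vegfa, Pgf, Flt1, Kdr, Flt4, Angpt2, Tie1 and Cdh5 are higher at day 5 with no overlap, Vegfb, Angpt1 and Vwf are lower with no overlap, and Tek is lower with overlap.

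Genes known from tip cells and VEGF-stimulated endothelium rose in 24 of 28, each of these 24 at least 2-fold and with separated arrays, and 1 fell (median 2.21). Esm1, a secreted proteoglycan of sprouting endothelium, went from 6.87 to 9.37 (median 8.26) to 13.80 to 14.46 (median 14.20). Igfbp3, an IGF carrier, rose by 3.85 (SE 0.25, adjusted p = 5.2e-21), the chemokine receptor Cxcr4 by 3.58 (SE 0.29), the adhesion molecule Mcam by 4.19 (SE 0.32), the urokinase receptor Plaur by 2.35 (SE 0.18), the Notch ligand Dll4 by 2.69 (SE 0.21) and the diaphragm protein gene Plvap, a marker of permeable capillaries, by 2.23 (SE 0.27). Adm, adrenomedullin, rose by 1.09 (SE 0.24), the smallest of these. The member that fell was Rcan1, a calcineurin inhibitor that is induced when VEGF signals through calcium: it was 12.01 to 13.18 in control and 11.79 to 12.08 at day 5 (-0.47, SE 0.12, adjusted p = 0.00052).

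General endothelial genes rose in 30 of 32 and fell in 2, Vwf and Tek (median 2.21). Cd93 rose by 3.91 (SE 0.31), the adhesion gene Icam2 by 3.49 (SE 0.37), VE-cadherin (Cdh5) by 3.17 (SE 0.29), the guidance receptor Robo4 by 2.68 (SE 0.24), the junction gene Esam by 2.45 (SE 0.25) and Pecam1 by 2.10 (SE 0.31). Vwf, which encodes the von Willebrand factor that endothelium stores for clotting, fell by 1.49 (SE 0.30, adjusted p = 2.1e-05), from 10.57 to 11.57 (median 11.08) down to 9.08 to 10.22 (median 9.64). So in the same arrays in which Cdh5 rose from at most 10.99 to at least 13.54, Vwf fell from at least 10.57 to at most 10.22.

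Endothelial genes are classically driven by ETS transcription factors, whose sites hold GGAA. To let the sequences be read beside the expression, promoter stretches of the 3 general endothelial genes with the largest rises among those that hold the ETS-type letters CAGGAAG (either strand) within 250 bases upstream of the transcription start are given, read from RefSeq on build GRCm38.p6, 5' to 3' on the gene's strand, with the match in capitals. They were chosen after the values were seen. Ushbp1 (USH1C-binding protein, +2.83) is read from chr8:71395844-71395880 on the minus strand, Exoc3l2 (an exocyst relative, +2.74) from chr7:19463213-19463249 on the plus strand and Emcn (endomucin, an endothelial sialomucin, +2.71) from chr3:137340889-137340925 on the plus strand.
Ushbp1: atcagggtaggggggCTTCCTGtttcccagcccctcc
Exoc3l2: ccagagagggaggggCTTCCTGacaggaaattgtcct
Emcn: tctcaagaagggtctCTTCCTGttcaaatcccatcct
Promoters were on hand for 17 of the 32 genes, in 22 windows, of which 9 (40.9%) held the motif, against 3554 of all 32851 mouse windows (10.8%). A match to these letters is a description of the sequence, not evidence of binding.

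Transcription factors of endothelium rose in 20 of 32 and fell in 1 (median 0.66). All 4 SOX members rose: Sox11, a factor of embryonic and tumour tissue, from 6.03 to 7.54 to 10.96 to 11.84 (at least 7.91-fold), and Sox18, which specifies vessels, by 2.79 (SE 0.28). Of 7 ETS members 6 rose, among them Erg, a keeper of endothelial identity, by 2.20 (SE 0.29) and Ets1 by 2.44 (SE 0.31). The repressor Bcl6b rose by 3.56 (SE 0.30), the homeobox gene Hlx by 2.44 (SE 0.36) and the forkhead gene Foxc2 by 1.94 (SE 0.34). Foxo1, a brake on endothelial growth that VEGF signalling inactivates through Akt, was the member that fell, by 0.34 (SE 0.11, adjusted p = 0.0096). The count of members lower was sensitive to single arrays, with 3 without control array 3 and 2 without control array 4, 5 or 8 or day 5 array 3.

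Readouts of signalling below the receptors rose unevenly. Of 22 such genes 14 rose and 1, Rcan1, fell (median 0.78). Inhibitors that the ERK kinase cascade induces against itself led: Spry4 rose from 8.27 to 9.57 (median 9.14) to 12.06 to 12.92 (median 12.42), a difference of 3.43 (SE 0.37, adjusted p = 3.6e-12), and the phosphatase genes Dusp5 and Dusp6 rose by 2.46 (SE 0.45) and 1.19 (SE 0.17). Of 7 immediate early genes, which respond to stimuli within the hour, 3 rose and none reached 2-fold (median 0.56); in another list of 10 immediate early genes, which shares Egr1 and Fosl1 with this one and is given with the glucocorticoid genes below, 7 rose and 2 of these reached 2-fold. Of 5 effectors 4 rose, as the kinase gene Prkch by 1.22 (SE 0.13).

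Notch and arterial genes rose in 15 of 18 with none lower (median 1.26). Both receptors rose; Notch4, the endothelial one, went from 9.05 to 10.16 (median 9.92) to 13.47 to 14.13 (median 13.88). All 4 ligands rose, with Dll4 first, and 4 of 5 targets, as the transcriptional repressor Hey1 by 1.8 (SE 0.31). Of arterial genes Gja4 (connexin 37) rose by 3.0 (SE 0.33) and the ligand Efnb2 by 1.84 (SE 0.24). Guidance genes rose in 17 of 24 and fell in 3 (median 0.99): 9 of 11 receptors rose and none fell, led by Plxnd1, a semaphorin receptor of endothelium (2.98, SE 0.25), whereas 8 of 13 ligands rose and 3 fell. Those that fell included Sema3c (-2.40, SE 0.33), from 13.96 to 14.58 to 10.77 to 13.42, and Sema3e (-1.01, SE 0.23), a ligand of Plxnd1 that repels vessels.

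Venous, lymphatic and adhesion genes split. Of 15 venous and lymphatic genes 6 rose and 4 fell (median 0.07). Stab1, a scavenger receptor of sinusoidal and lymphatic endothelium and macrophages, rose by 2.51 (SE 0.19) and the lymphatic gene Mmrn1 by 2.02 (SE 0.49). The lymphatic gene Reln fell by 1.04 (SE 0.30), and Pdpn, which keratinocytes and fibroblasts also express, by 0.68 (SE 0.17). Ackr1, the chemokine-binding receptor of venules, fell by 1.46 (SE 0.18, adjusted p = 1.2e-10), from 11.46 to 12.26 (median 11.84) to 9.91 to 10.93 (median 10.47). Of the selectins that venules use to catch leukocytes Selp fell by 0.67 (SE 0.19, adjusted p = 0.0016). Sele was called lower too (adjusted p = 0.00079), but its control mean and all its day 5 arrays lay below the filter level (7.52 to 8.58 in control, 6.69 to 7.63 at day 5), so no fold is given. In the same arrays the immunoglobulin adhesion genes that act later in leukocyte capture rose, 4 of 5, with Vcam1 up by 1.74 (SE 0.31) and Icam1 by 1.38 (SE 0.20).

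Among vasoactive genes 13 of 26 rose and 4 fell (median 0.77). Nos3, the endothelial nitric oxide synthase, rose by 1.29 (SE 0.20), a subunit gene of its target guanylate cyclase, Gucy1b1, by 1.42 (SE 0.32), the endothelin receptor Ednrb by 1.65 (SE 0.25) and the bradykinin receptor Bdkrb2, a mediator of leak, by 1.81 (SE 0.24). Prostaglandin E synthase (Ptges) fell by 0.89 (SE 0.17). The receptor partner Ramp1, with which the calcitonin receptor-like receptor binds CGRP, fell by 1.97 (SE 0.26), while Ramp3, with which it binds adrenomedullin, rose by 1.89 (SE 0.30).

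Coagulation genes rose in 16 of 25 and fell in 3 (median 0.68). The thrombin receptor F2r (PAR1) rose by 4.19 (SE 0.32, adjusted p = 5.3e-18); 7 control arrays lay at 10.73 to 11.31 and array 3 at 12.84, all below the day 5 range of 15.26 to 15.76. F2rl3 (PAR4) rose by 2.17 (SE 0.41) and Tfpi2, a plasmin and factor VII inhibitor, by 2.42 (SE 0.23). Thbd (thrombomodulin), which turns thrombin to an anticoagulant role, fell by 1.42 (SE 0.23, adjusted p = 2.1e-07), from 12.96 to 14.37 to 11.64 to 12.73. Tissue factor (F3) stood at 11.31 ± 0.38 (SD, n = 8) in control and 11.41 ± 0.25 (n = 8) at day 5 (adjusted p = 0.67). The platelet chemokine gene Ppbp rose by 1.95 (SE 0.43).

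Mural cell genes rose more often than they fell, with members called in both directions. Of 17 pericyte genes 10 rose, 8 of them at least 2-fold, and 4 fell, 3 of them at least 2-fold (median 0.93). Pdgfb, by which endothelium recruits pericytes, rose by 2.08 (SE 0.22), its receptor Pdgfrb by 2.06 (SE 0.28), Cspg4 (NG2) by 2.05 (SE 0.18), Ndufa4l2 by 2.61 (SE 0.41) and Rgs5 by 0.93 (SE 0.26). Vtn fell by 1.29 (SE 0.29) and desmin (Des), which skeletal muscle also expresses, by 1.90 (SE 0.42). Smooth muscle genes rose in 6 of 13 and fell in 3 (median 0.22): Acta2 rose by 1.09 (SE 0.27), the regulator Myocd at least 1.22-fold and the channel subunit gene Kcnmb1 at least 1.63-fold. Tpm2, Synpo2 and Lmod1 fell by 2.23 to 2.73; all of these occur in skeletal muscle too.

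Vessel basement membrane genes rose in 13 of 16 and fell in 2 (median 1.5). The collagen IV pair rose together, Col4a1 from 13.24 to 14.38 to 15.91 to 16.27 and Col4a2 from 12.10 to 13.29 to 15.16 to 15.60. Nid2 rose by 3.49 (SE 0.27), Col8a1, a collagen of remodelling vessels, by 3.46 (SE 0.45) and Col18a1, the source of endostatin, by 2.98 (SE 0.24). Lama2, the laminin chain of muscle and nerve sheaths, fell by 0.73 (SE 0.18) and Lamb2 by 0.69 (SE 0.20).

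The matrix of wounds and tumour stroma rose in 21 of 28 with none lower (median 1.39). Tnc (tenascin C) went from 10.17 to 11.60 (median 11.08) to 14.38 to 14.92 (median 14.68). Ccn4, a matricellular WNT target, rose by 4.01 (SE 0.33), Col12a1 by 3.29 (SE 0.31), Ccn2 (CTGF) by 3.15 (SE 0.35) and the collagen chaperone Serpinh1 by 1.01 (SE 0.22). The matrix of resting dermis behaved otherwise: 7 of 26 rose and 12 fell (median -0.32). Col1a1 rose from 12.55 to 13.80 to 14.82 to 15.22 and the proteoglycan gene Bgn by 2.31 (SE 0.25), while Pi16 and Clec3b, which mark resting adventitial fibroblasts, fell by 2.94 (SE 0.40) and 2.46 (SE 0.36). The fibroblast markers split: Col1a1 was among those that rose, while decorin (Dcn) fell by 1.0 and lumican (Lum) by 1.57. Day 5 arrays were uneven here: Pi16 ran from 10.37 to 13.55 (median 11.63), against 14.16 to 14.99 in control. The level of the whole resting list, the mean over its members, was 12.32 to 12.75 on day 5 arrays 1, 2, 5 and 6 and 13.10 to 13.69 on arrays 3, 4, 7 and 8, against 12.80 to 13.59 in control.

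Among matrix proteases 17 of 27 rose and 3 fell (median 0.94). The collagenase gene Mmp13 rose at least 6.57-fold and the macrophage elastase gene Mmp12 at least 2.80-fold; Adam12 rose by 3.38 (SE 0.32) and the aggrecanase gene Adamts4 by 3.18 (SE 0.26), with 6 of 7 ADAM-type genes higher. Mmp2, the gelatinase of resting fibroblasts, fell by 0.79 (SE 0.25, adjusted p = 0.0046). Of the 4 inhibitors 1 rose and 2 fell: Timp1 by 3.54 (SE 0.29), against Timp2 (-1.07, SE 0.19) and Timp4 (-2.40, SE 0.26). Integrin genes rose in 14 of 20 and fell in 2 (median 1.25), with 11 of 13 alpha chains higher. Itga1, a collagen receptor chain of sprouting vessels, went from 8.43 to 9.54 (median 9.11) to 12.18 to 13.03 (median 12.59). Itga5, of the fibronectin receptor, rose by 2.57 (SE 0.18) and Itgb3, of the vitronectin receptor, by 2.87 (SE 0.34).

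Secreted growth factors had no shared direction, with 8 of 24 higher and 6 lower (median 0.06). Tgfb1 rose by 2.35 (SE 0.19) and the activin gene Inhba by 1.04 (SE 0.25), and the BMP target genes Id1 and Id3 by 1.01 (SE 0.23) and 1.03 (SE 0.18), in a BMP and TGF-beta list with 9 of 24 higher and 2 lower (median 0.33). Among IGF carriers Igfbp3 rose while Igfbp5 fell from 15.73 to 16.04 (median 15.91) to 12.07 to 14.46 (median 12.85) and Igfbp6 fell by 2.87 (SE 0.41). Egf fell by 2.26 (SE 0.29) and Fgf18, below the filter level on all 8 day 5 arrays, at least 1.41-fold.

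**Figure D3:**
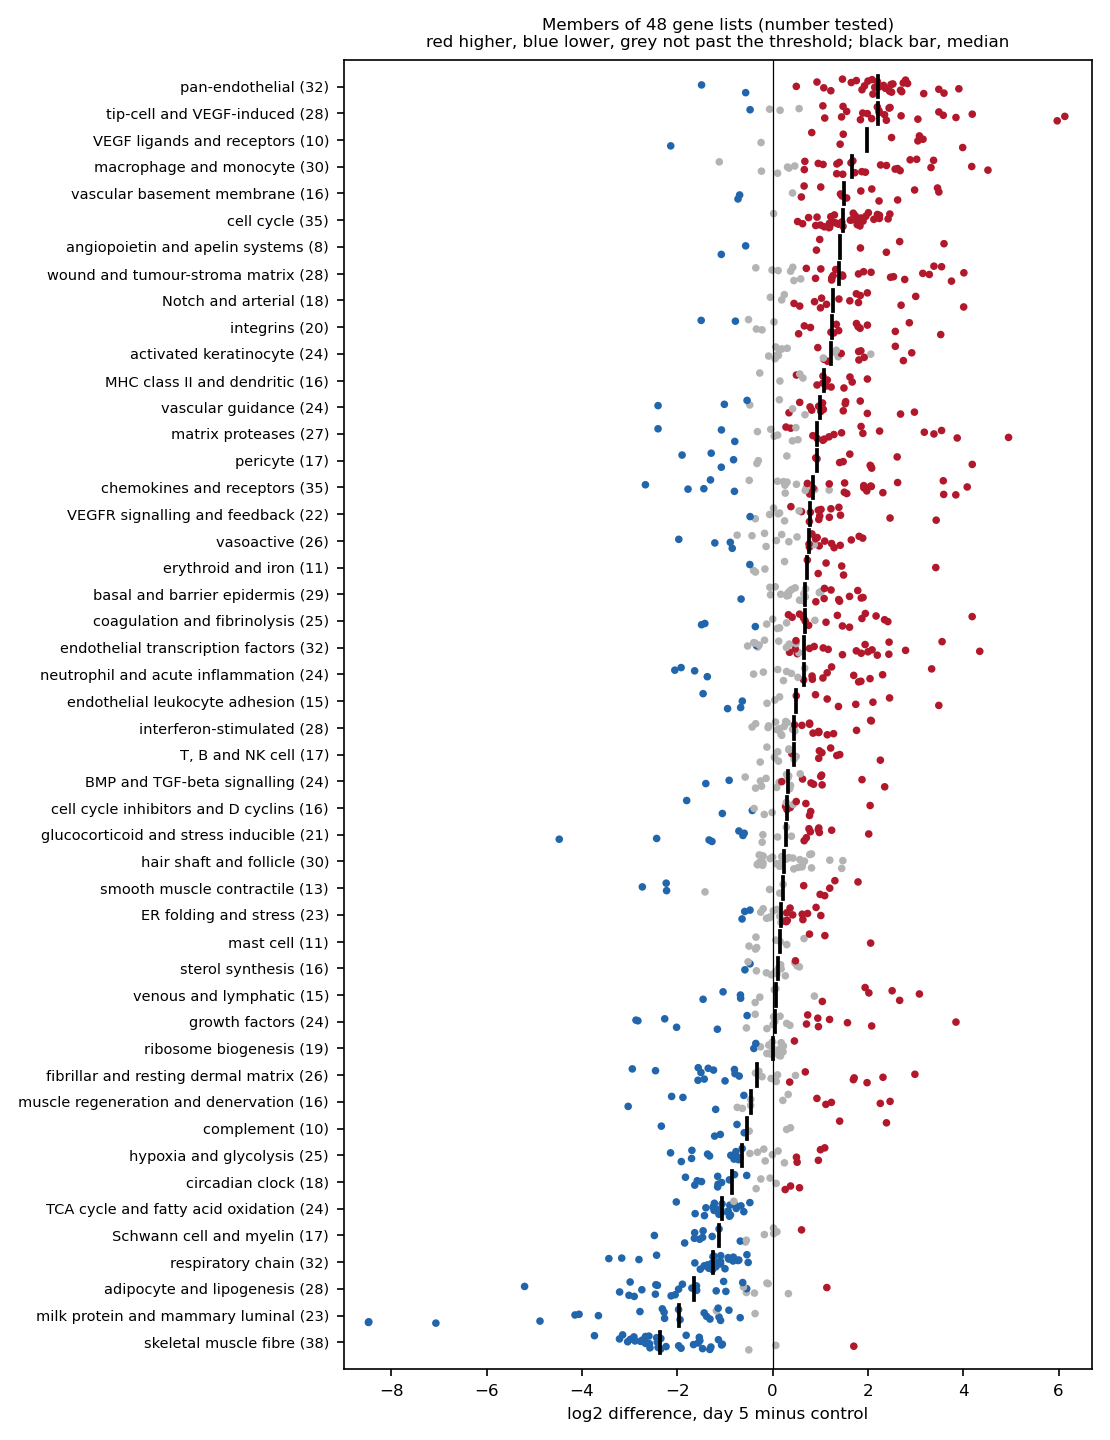
Difference between day 5 and control (x axis, log2) for each tested member of 48 gene lists, ordered by the list's median (black bar); red points were higher and blue points lower past an adjusted p of 0.05, grey points were not called. General endothelial and tip-cell lists lie highest, each with a median of 2.21, and skeletal muscle lowest, at -2.36; no hair follicle member was called.

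Cell division genes rose in 34 of 35 with none lower (median 1.48), 15 of 15 for replication and 19 of 20 for mitosis. Mki67, the Ki-67 antigen gene, was 9.63 to 13.06 (median 11.89) in control and 13.22 to 13.68 (median 13.48) at day 5. Cdk1, the mitotic kinase gene, was 8.31 to 11.88 (median 10.53) and then 12.17 to 12.79 (median 12.48), and Bub1, of the spindle checkpoint, 4.80 to 10.37 and then 10.52 to 11.40. The rise thus came on a control group that varied widely: its list level ran from 8.65 on array 8 to 10.99 on array 3, while day 5 arrays held to 11.20 to 11.59. Control arrays high in division genes also stood high in hair and epidermis genes, with hair levels of 12.07 to 13.17 on arrays 3 to 6 and 11.18 to 12.01 on the other 4. The part of hair follicle growth in the control values was not tested.

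Many mitotic genes carry 2 promoter elements, a CHR (TTTGAA or TTCGAA), through which the DREAM and MuvB complexes act, and CCAAT boxes, bound by NF-Y. Stretches of the 3 mitosis genes with the largest rises among those holding both within 250 bases upstream of the start show where they lie. They are from RefSeq on GRCm38.p6, 5' to 3' on the gene's strand, with CHR and CCAAT letters (either strand, so ATTGG too) in capitals, and were chosen after the values were seen. Bub1b (a checkpoint kinase, +2.24) is read from chr2:118598008-118598117 on the plus strand, Cdk1 (+2.12) from chr10:69352913-69353135 on the minus strand and Cdc20 (the activator of the mitotic ubiquitin ligase, +2.01) from chr4:118437344-118437411 on the minus strand.
Bub1b: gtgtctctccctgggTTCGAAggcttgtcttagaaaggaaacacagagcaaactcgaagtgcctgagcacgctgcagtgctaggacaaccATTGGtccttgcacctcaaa
Cdk1: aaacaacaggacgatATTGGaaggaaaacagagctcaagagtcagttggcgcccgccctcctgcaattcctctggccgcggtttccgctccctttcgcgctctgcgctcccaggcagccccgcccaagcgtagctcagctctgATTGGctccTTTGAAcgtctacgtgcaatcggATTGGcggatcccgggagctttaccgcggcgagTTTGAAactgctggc
Cdc20: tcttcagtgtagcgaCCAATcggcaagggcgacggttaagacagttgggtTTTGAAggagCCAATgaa
Of 16 mitosis gene windows on hand for the 20 genes, 7 held a CHR (43.8%) and 13 a CCAAT box (81.2%), against 17.1% and 33.8% of all 32851 windows. A match is a description only.

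Genes around division were less uniform. Of 16 inhibitors and D-type cyclins 8 rose and 3 fell (median 0.29): Ccnd1, the cyclin that couples growth factors to division, rose from 11.56 to 13.31 to 14.27 to 14.74, and Ccng1 fell by 1.8 (SE 0.27). The count of 8 fell to 5 with the RNA ratios as covariates. Ribosome biogenesis genes, which often rise with growth, were called in 3 of 19, 1 higher (Srm, of polyamine synthesis, by 0.46, SE 0.12) and 2 lower, with a median of 0.00. In the endoplasmic reticulum list 11 of 23 rose and 3 fell (median 0.17), 7 higher with the RNA ratios as covariates. Pdia6, which forms disulfide bonds, rose by 0.73 (SE 0.13) and Sec24d, a coat protein gene of secretory transport, by 0.91 (SE 0.18).

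Macrophage and monocyte genes rose in 24 of 30 with none lower (median 1.66). Trem2, a lipid receptor of macrophages, rose at least 5.83-fold, from 6.07 to 6.95 (median 6.37) to 10.72 to 11.54 (median 10.97). The lectin receptor gene Clec4n went from 8.81 to 9.67 to 13.23 to 13.56, and Ccr2, the receptor that calls monocytes from blood, rose by 2.62 (SE 0.35) while its ligand gene Ccl2 went from 7.43 to 9.70 (median 8.13) to 11.47 to 13.04 (median 12.21). List levels were 10.58 to 11.92 in control, highest on array 1, and 12.60 to 12.98 at day 5.

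Of 24 genes of neutrophils and acute inflammation 12 rose and 4 fell (median 0.66). By part, 6 of 9 neutrophil genes rose and 1 fell, and 4 of 9 cytokine genes rose and 1 fell. Of 5 acute phase genes 1 rose and 2 fell, and the 1 enzyme gene tested rose. Interleukin genes Il1b and Il6 rose by 1.70 (SE 0.33) and at least 2.52-fold. Acute phase genes split: Saa3 rose by 3.34 (SE 0.46), from 8.87 to 10.13 to 12.33 to 13.72, whereas Lcn2 fell by 2.05 (SE 0.59, adjusted p = 0.0025) and Orm1 by 1.92 (SE 0.58, adjusted p = 0.0041; 0.15 with the RNA ratios as covariates). Lcn2 control arrays spread from 11.22 to 14.69. The alarmin Il33, of barrier and stromal nuclei, fell by 1.64 (SE 0.31). Camp, cathelicidin, ran from 5.72 to 10.78 across day 5 arrays, against 5.62 to 6.56 in control. All control arrays and the day 5 mean lay below the filter level, so no fold is given.

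Of 35 chemokine and receptor genes 19 rose and 5 fell (median 0.85). The neutrophil attractant Cxcl5 rose at least 2.78-fold and the monocyte attractant Ccl3 at least 1.51-fold. Cxcl13, which draws B cells, fell by 2.67 (SE 0.52, adjusted p = 1.1e-05), from 10.43 to 13.17 to 7.70 to 10.12, Ccl27a, made by keratinocytes, by 1.44 (SE 0.17) and Ccl24, made by resident macrophages, by 1.77 (SE 0.52). Genes of antigen presentation and dendritic cells rose in 12 of 16 (median 1.08), all 6 class II genes among them, as H2-Ab1 by 1.23 (SE 0.24), and Cd40 by 1.67 (SE 0.18). Interferon-stimulated genes rose in 13 of 28 with none lower (median 0.45). Rsad2 (viperin) rose from 10.65 to 12.06 to 12.52 to 13.30, and Cxcl10 from 5.75 to 8.63 to 9.77 to 10.42. Control arrays 1 and 2 reached list levels of 12.04 and 11.53, within or above the day 5 range of 11.20 to 11.85. The other 6 control arrays lay at 10.39 to 11.15. Without control arrays 1 and 2, an alternative chosen after seeing the data, 17 of 28 rose. With the RNA ratios as covariates the count fell to 9 of 28.

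Lymphoid genes rose in 8 of 17 with none lower (median 0.45), 2 of 7 T cell genes and 5 of 8 cytotoxic genes, as Gzma by 1.35 (SE 0.43) and Klrd1 by 0.98 (SE 0.29). Cd4, which mouse monocytes and dendritic cells can also express, rose at least 1.09-fold, while the T cell gene Cd3g lay below the filter level on all 16 arrays. With a stricter filter on low signal 2 of the 8 calls were left. Mast cell proteases Cma1 and Cpa3 were not called (adjusted p = 0.28 and 0.20) while the tryptase gene Tpsab1 rose by 2.06 (SE 0.25), and 3 of 11 genes rose in all. Complement genes went both ways, 2 of 10 higher and 5 lower (median -0.54). The receptors C3ar1 and C5ar1 of leukocytes rose by 2.39 (SE 0.22) and 1.41 (SE 0.27), while the component genes C1ra and C1s1 and the regulator Cd55 fell by 1.22 (SE 0.26), 1.10 (SE 0.28) and 2.33 (SE 0.33). In the iron list, which holds erythroid and iron genes, 6 of 11 rose and 1 fell (median 0.73). Of 4 erythroid genes 2 rose, and of 7 iron and haem genes 4 rose and 1 fell. Hmox1, heme oxygenase 1, went from 9.50 to 11.55 (median 10.14) to 13.43 to 14.01 (median 13.68), a rise of 3.42 (SE 0.26, adjusted p = 7.5e-18), and the iron exporter gene Slc40a1 rose by 1.45 (SE 0.37).

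Skeletal muscle genes fell in 35 of 38 (median -2.36), the lowest median of the 48 lists. Calcium handling genes fell in 10 of 10, as the junction gene Jph1 (-3.21, SE 0.44), and energy genes in 7 of 7, as Pgam2 (-3.15, SE 0.55). Acta1, skeletal actin, was 16.23 to 17.06 in control and 15.75 to 16.37 at day 5 and was not called (-0.50, SE 0.41, adjusted p = 0.31; 0.0012 when only these 2 groups were fitted and 0.0495 with the RNA ratios as covariates). Tnni1, the slow-fibre troponin, was the member that rose (1.70, SE 0.68, adjusted p = 0.030), a call lost without control array 1 (0.091) or 5 (0.070) or day 5 array 4 (0.069) or 7 (0.051), and with the RNA ratios as covariates. In a list of muscle regeneration and denervation 5 of 16 genes rose and 5 fell (median -0.46): 3 of 3 embryonic genes rose, 3 of 4 atrophy genes fell, and of 6 regulators 1 rose and 2 fell. Myh3, embryonic myosin, rose from 7.27 to 8.72 (median 8.29) to 9.47 to 12.31 (median 10.33) and Mymk, the fusion factor myomaker, from 4.95 to 6.93 to 7.06 to 9.80, with all control arrays and the day 5 mean below the filter level. The factor Myf6 of mature fibres fell by 3.03 (SE 0.51) and the atrophy ligases Trim63 and Fbxo32 by 2.12 (SE 0.55) and 1.88 (SE 0.40).

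All 32 respiratory chain genes fell (median -1.24), 30 with separated arrays, across complexes I (8 of 8), II (4 of 4), III (6 of 6), IV (7 of 7) and V (4 of 4). The muscle forms of complex IV subunits fell furthest: Cox7a1 from 12.44 to 14.94 (median 13.62) to 9.89 to 10.47 (median 10.16), Cox8b (-3.17, SE 0.50) and Cox6a2 (-2.81, SE 0.45) next. Subunits found in all tissues fell less, Ndufs3 of complex I by 1.52 (SE 0.16) and Uqcrfs1 of complex III by 1.63 (SE 0.20). Ppargc1a (PGC-1alpha), the coactivator of mitochondrial genes, fell by 2.44 (SE 0.29), and citrate cycle and fatty acid oxidation genes fell in 23 of 24 (median -1.07), as Suclg1 by 1.63 (SE 0.18) and Acadm by 1.40 (SE 0.14). Muscle list levels moved with these, at 14.26 to 15.82 in control and 12.46 to 13.30 at day 5. Control array 8 was highest in muscle (15.82) and in respiration (15.52). The part of muscle content in the respiratory result was not tested. Promoters of this list were also scanned for the site of the transcription factor NRF1, within 250 bases upstream of the start. Of 24 windows on hand for 22 of the 32 genes, 0 held it, against 257 of all 32851 mouse windows (0.782%). With so low a share among all windows, 24 windows are too few to show whether the site is rarer in this list.

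Fat genes fell in 21 of 28, and 1 rose (median -1.65). Thrsp, a lipogenesis gene, fell by 5.20 (SE 0.59), from 12.53 to 15.57 (median 15.05) to 8.28 to 10.37 (median 8.98). Adipoq (adiponectin), Retn (resistin) and Slc2a4 (the insulin-regulated glucose transporter) fell, with differences of -2.90 (SE 0.46), -3.01 (SE 0.41) and -3.21 (SE 0.36), as did the carbohydrate-sensing factor Mlxipl (-2.99, SE 0.32). Elovl3, a fatty acid elongase gene also of sebaceous glands, rose by 1.14 (SE 0.37). Sterol synthesis genes were called in 3 of 16, 1 higher and 2 lower (median 0.11). Leaving out single arrays moved these counts to between 0 and 2 higher and between 1 and 3 lower; they reached 0 higher without control array 7 or 8 or day 5 array 1 or 2.

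Milk protein and mammary luminal genes fell in 21 of 23 with none higher (median -1.97), and control arrays differed widely among themselves. Csn2, beta-casein, ran from 10.17 to 16.41 (median 15.19) in control, with an SD of 2.46, and from 4.32 to 6.96 at day 5. It fell at least 55.9-fold, since all 8 day 5 arrays lay below the filter level, and was called with only these 2 groups fitted too (adjusted p = 1.2e-07). Csn1s2a and Csn1s1 fell at least 25.4-fold and at least 38.3-fold. The simple epithelial keratins Krt18 and Krt19 fell (-4.15, SE 0.54, and -4.06, SE 0.53), as did the water channel gene Aqp5 (at least 4.21-fold) and the luminal cofactor Cited1 (at least 3.20-fold). The list level was lowest among control arrays on 4 (10.00) and 8 (10.25), with the other 6 at 11.58 to 12.61, and 8.53 to 8.77 on all 8 day 5 arrays. Fat list levels on the same arrays 4 and 8, at 12.42 and 12.24, were the lowest of the control group too.

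**Figure D4:**
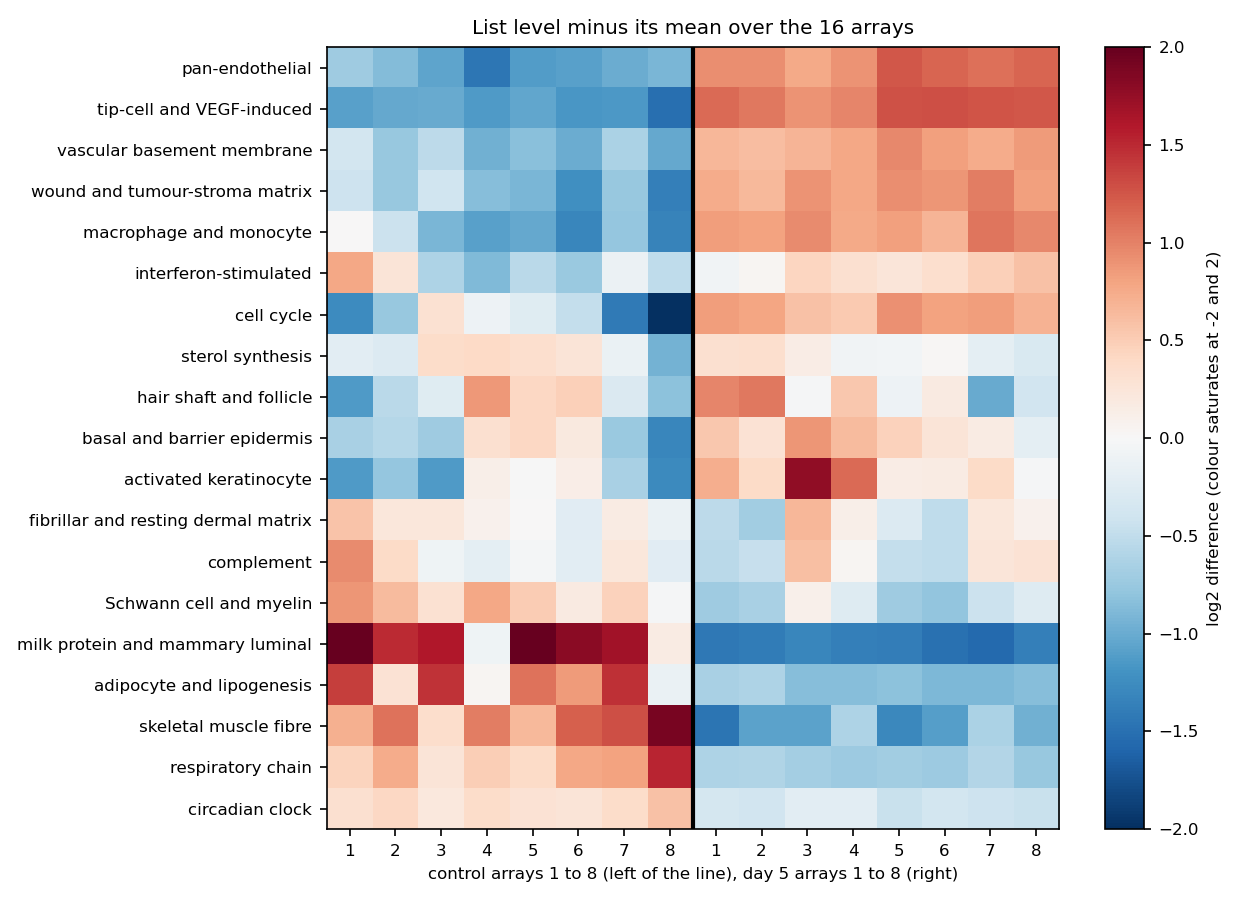
List level (mean log2 signal over a list's tested members) minus that list's mean over the 16 arrays, for 19 lists (rows) on control arrays 1 to 8 and day 5 arrays 1 to 8 (columns); red is above and blue below the mean, and colour saturates at 2. The vascular rows change sign at the group border, milk and fat rows are paler on control arrays 4 and 8, and hair, epidermis and resting dermis rows vary within each group.

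Hair shaft and follicle genes were called in none of 30 by limma at an adjusted p under 0.05 (median 0.24); 5 rose when only these 2 groups were fitted. The group ranges of the list level were 11.18 to 13.17 and 11.30 to 13.36. Keratin genes of activated keratinocytes, which appear in wounded epidermis, rose in 4 of 4, as Krt6b from 8.38 to 12.76 (median 9.78) to 11.81 to 14.88 (median 12.66), and 11 of 24 genes of that list rose (median 1.23). Day 5 array 3 was highest in this list, at 12.50. Leaving out control array 1, control array 2, day 5 array 3 or day 5 array 4 gave a count of 7, and leaving out control arrays 1, 2 and 8 together gave 3. Basal and barrier genes rose in 10 of 29 and fell in 1 (median 0.69), with 6 higher without control array 1 or 2 and 5 without array 8. Krt14 and Krtdap rose by 1.40 (SE 0.39) and 1.61 (SE 0.45), Krt14 with an adjusted p of 0.081 without control arrays 1, 2 and 8 (also chosen after seeing the data), and the hemidesmosome gene Itgb4 fell by 0.66 (SE 0.18).

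Clock genes fell in 11 of 18 and rose in 3 (median -0.85). The output factors and repressors of the daily oscillator fell, 4 of 4 and 6 of 10: Dbp from 11.69 to 12.52 (median 11.89) to 9.78 to 10.55 (median 10.18), Per2 by 1.63 (SE 0.16), Nr1d1 by 1.49 (SE 0.21) and Nr1d2 by 1.58 (SE 0.17). The activator Npas2, which normally runs opposite to these, rose by 0.56 (SE 0.18). The hour of harvest is not given in the labels, so time of day and condition cannot be told apart. Of 9 glucocorticoid-induced genes 4 fell, 2 rose and 3 were not called (median -0.22). Those that fell were Klf15, a fasting and steroid response factor, which went from 10.12 to 11.41 (median 10.72) to 4.99 to 6.88 (median 6.47) and was at least 4.84-fold lower, Zbtb16 (-2.43, SE 0.24), Klf9 (-1.33, SE 0.19) and Tsc22d3, or GILZ (-1.27, SE 0.26). In the same list 7 of 10 immediate early genes rose and 2 fell, with Fos up from 11.31 to 12.32 to 13.71 to 14.70.

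Genes of hypoxia and glycolysis fell in 13 of 25 and rose in 5 (median -0.64). Of the 12 hypoxia genes 5 fell, 2 rose and 5 were not called, and of the 13 glycolysis genes 8 fell and 3 rose. Hif1a rose by 1.0 (SE 0.14), but several targets of its protein fell: the mitophagy gene Bnip3 from 13.85 to 14.50 to 11.60 to 12.37, Pdk1 by 1.69 (SE 0.18), the oxygen sensor gene Egln1 by 1.36 (SE 0.15), Hk2 by 1.92 (SE 0.23) and Ldha by 1.32 (SE 0.20). Muscle also expresses most of the glycolytic genes, and the part of muscle content was not tested. Schwann cell and myelin genes fell in 10 of 17 and 1 rose (median -1.12); the rise was not called without control array 6 or 8 or day 5 array 1, 4 or 6, without control arrays 1, 2 and 8 together, with adjacent arrays averaged, or with the RNA ratios as covariates. Sox10, the factor of the glial lineage, fell by 2.48 (SE 0.35, adjusted p = 1e-08), from 9.32 to 11.39 to 7.22 to 9.04, the myelin gene Mbp by 1.85 (SE 0.43) and the Schwann cell cadherin gene Cdh19 by 1.64 (SE 0.32).

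Day 5 was then set against later untreated tissue, with these groups contrasted directly, so that the control arrays enter only the shared estimate of spread. At day 20 a total of 2975 genes (20.2%) differed from day 5, 1533 higher (10.4%) and 1442 lower (9.8%), a split that became 1007 higher and 2087 lower after median centring of the arrays, and at day 60 the count was 5790 (39.3%), 2901 higher (19.7%) and 2889 lower (19.6%). RNA ratios differed here too. That of Gapdh was 0.778 to 0.925 at day 20 and 0.834 to 1.02 at day 60, against 0.907 to 1.10 at day 5. That of Actb reached 2.57 at day 60, against 1.69 at day 5. With both ratios as covariates 2378 genes were called at day 20 in place of 2975, and 5089 at day 60 in place of 5790. Division and myeloid genes were lower by day 20: cell cycle genes in 32 of 35 (mean list level 11.43 at day 5 and 10.34 at day 20) and macrophage genes in 17 of 30. Ccl2 fell by 2.81 (SE 0.35, adjusted p = 1e-08) and Tnc by 2.37 (SE 0.30). Of 32 general endothelial genes 6 were lower and 3 higher at day 20, whereas 29 were lower at day 60. Angpt1 and Tek, low at day 5, were higher at day 20 by 0.59 (SE 0.15) and 0.98 (SE 0.23), as was Selp; 8 of 15 venous and lymphatic genes were higher and 1 lower. Resting dermal matrix genes were higher in 12 of 26 at day 20 and 16 of 26 at day 60, and Schwann cell and myelin genes in 10 and 11 of 17. Of respiratory genes 2 of 32 were higher at day 20 than at day 5 and 14 at day 60, and of milk genes 2 and 5 of 23.

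**Figure D5:**
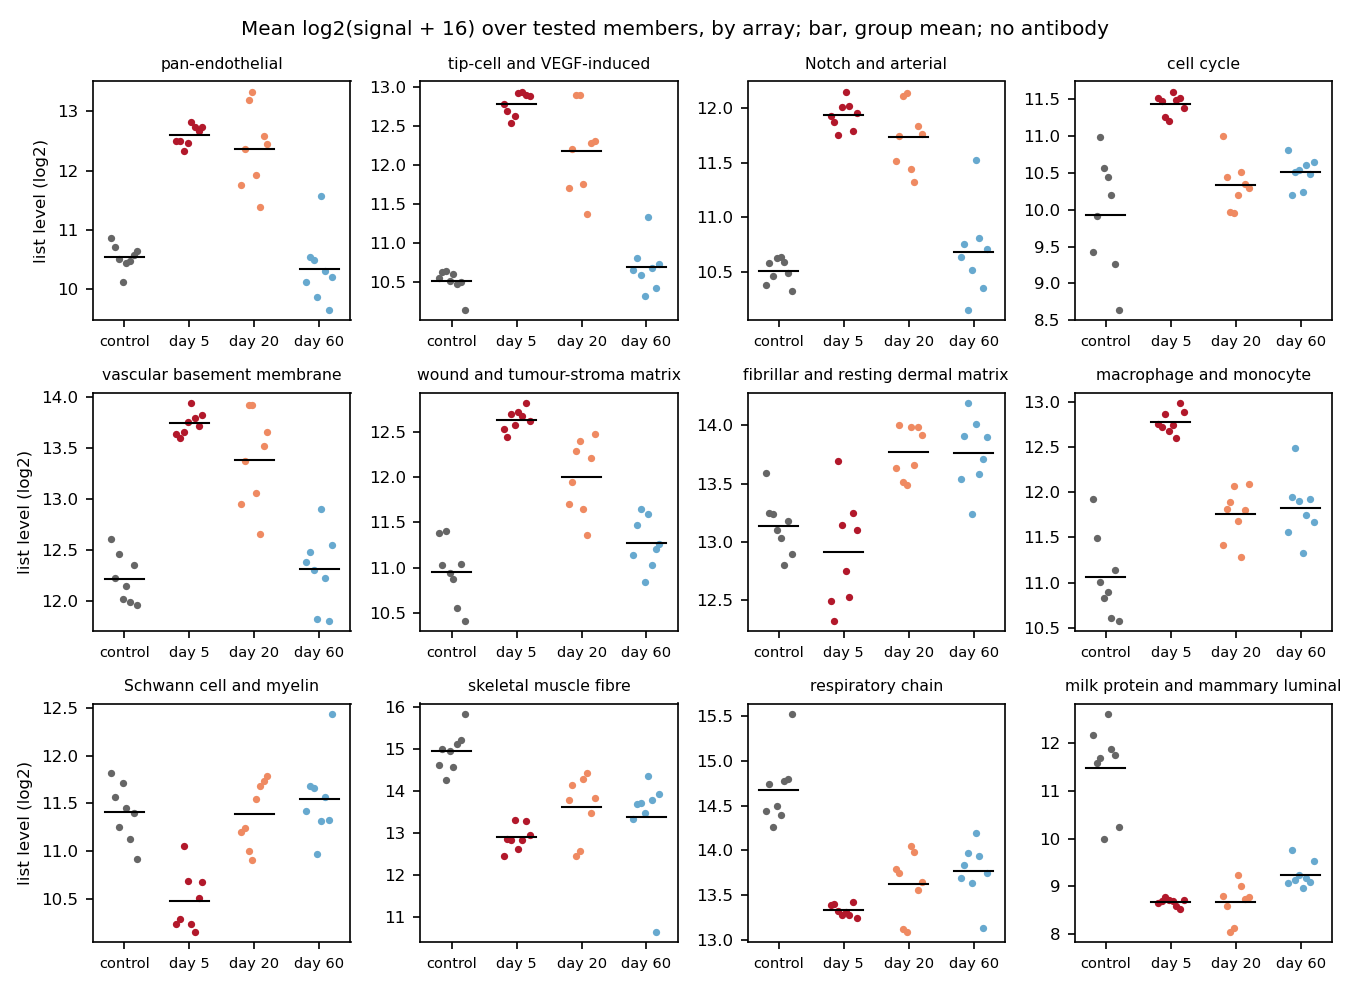
List level (mean log2 signal over tested members) of 12 gene lists by array, for control, day 5, day 20 and day 60 tissue of mice given no antibody; points are arrays (n = 8 a group) and bars group means. General endothelial genes have means of 10.54, 12.60, 12.37 and 10.35 in that order and cell cycle genes 9.93, 11.43, 10.34 and 10.51, while milk genes have means of 11.49, 8.67, 8.66 and 9.24.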

How the data were processed

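Each RNA sample of flank tissue went onto an Affymetrix whole-genome mouse array. The authors deposited signal intensity on a linear scale, computed with MAS5 (GCOS 1.3 software) per the submitters' processing notes. A gene annotation of the platform gave 1 symbol for 34958 of 45101 probe sets. Probe sets whose signal passed 331 (40% of all values lie below it) on 6 or more of the 78 arrays were kept, and the brightest represented each gene (14718 genes). Values were taken as log2(signal + 16). A limma 3.58.1 model (R 4.3.3) over all 10 groups, with an intensity trend in eBayes, gave two-sided tests with Benjamini-Hochberg adjustment over all genes and a threshold of 0.05. Precision is limited by the number of arrays.

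The members of the comparison, 48 gene lists and the tests were chosen with earlier results of these data known. Of 1158 list entries 1096 matched a gene on the array, 6 by synonym, and 984 distinct genes were tested, of which 415 were higher and 257 lower. Named genes are the 20 largest rises and falls with separated arrays, the 6 largest changes of each list with up to 3 against its direction, and a fixed set; others come from marker lists or are said to be chosen after their values were seen. A gene of the fixed set is not reported here. Tested on simulated data for this comparison (14718 genes), the model found 40% of 100 true changes of 0.5 log2 and 71% of 100 true changes of 1. The simulation changed no other gene and drew each value independently, whereas 52.8% of genes were called in the real comparison. These rates therefore do not say what share of real changes was found. Promoter windows are RefSeq's, on GRCm38.p6. Alternatives were other pseudocounts, filters, scalings, probe set summaries, array weights, RNA ratio covariates, averaged neighbouring arrays, only the compared groups in the fit, a 2-fold minimum and leaving out each array.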

Additional observations from a re-analysis of the deposited data

Results flagged for a closer look

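Within groups of 8 arrays, 32 of 560 checks of a named gene or list level found 1 array far from the rest; chance alone gives about 1 in 20. Control array 8 accounted for the most. It was highest in genes of muscle and mitochondria, with 17.06 for Acta1 (16.23 to 16.54 on the other 7), 12.61 for Ppargc1a, 15.36 for Ndufs3, 15.36 for Uqcrfs1, 14.94 for Suclg1, and list levels of 15.52 for the respiratory chain and 14.64 for the citrate cycle and fatty acid oxidation. The same array was lowest for Bub1 (4.80, others 7.82 to 10.37), Foxc2 (6.00), Id3 (10.93), Itga1 (8.43), Reln (10.67) and F3 (10.48), and in the list levels of tip-cell genes (10.14), BMP and TGF-beta signalling (10.71), growth factors (11.18) and mast cells (8.80).

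Control array 3 stood high for F2r (12.84), Cxcr4 (11.02, others 9.04 to 9.86), Vegfc (10.80) and Col18a1 (12.27). Control array 4 stood low for Kdr (10.06, others 10.69 to 11.11), Cdh5 (10.37) and Cxcl10 (5.75) and high for Cspg4 (10.98). Control array 1 was low for Bdkrb2 (6.72) and array 2 for Camp (5.62). At day 5, array 3 was high for Saa3 (13.72), array 2 for Egf (10.08) and array 5 for Csn1s2a (5.40), a gene below the filter level there, and array 7 was low for Per2 (7.16) and Foxo1 (11.73).

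Day 20 differed from day 5 by limma's adjusted p under 0.05 for 15 of the 37 genes followed by rule, against 20.2% of all genes. Lower at day 20 were Vegfa (-1.32), Flt1 (-0.99), Kdr (-0.85), Kcne3 (-1.67), Dll4 (-1.0), Pdgfb (-0.64), Tnc (-2.37), Mki67 (-1.40), Cdk1 (-1.41) and Ccl2 (-2.81). Higher were Vegfb (0.84), Angpt1 (0.59), Tek (0.98), Rgs5 (0.72) and F3 (0.54).

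Of 5818 probe sets that passed the filter on low signal without a gene name of their own, 320 were called higher at day 5 by at least 2-fold with every day 5 array above every control array. These probe sets enter no comparison of genes, and those lower at day 5 were not counted. Of the 14718 genes 8.9% were called higher by at least 2-fold, and 12.9% had every day 5 array above every control array. The share of genes meeting both was not computed, so the 320 cannot be set against it.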

How the results depend on the processing

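No paired analysis was possible because the array numbers of the groups do not overlap and the labels tie no array of one group to an array of another. A 2-fold minimum lowered the counts of called genes to 2574 for day 5 against control, 657 for day 20 against day 5 and 1435 for day 60 against day 5. Array weights raised the day 20 count to 5232 and averaging adjacent arrays lowered it to 1948. Under the other planned settings the day 5 count ran from 6587 (RNA ratio covariates) to 8761 (array weights). Leaving out 1 array gave 7247 (control array 8) to 7772 for day 5, 2574 to 2869 for day 20 and 5388 to 5699 for day 60. Of 232 named genes 226 were called, 206 with the 2-fold minimum, and 10 were not tested under the stricter filter. Under the other settings no direction reversed among them, and calls changed only for Tek, Tnni1, Nrp2, Orm1, Acta1 and Krt14, as given with each. Further list counts that moved by over 1.5 times under some setting include integrins lower (2; 0 with the stricter filter, 4 with only these 2 groups fitted), BMP and TGF-beta genes lower (2; 4 with array weights), endothelial factors lower (1; 4 with only these 2 groups fitted), sterol genes lower (2; 0 with RNA ratio covariates, 4 without control arrays 1, 2 and 8), ribosome biogenesis genes lower (2; 1 with those covariates), iron genes lower (1; 0 after quantile normalization, 2 with only these 2 groups fitted), VEGFR signalling genes lower (1; 2 without control arrays 1, 2 and 8) and epidermal genes higher (10; 3 without control arrays 1, 2 and 8, 14 with only these 2 groups fitted). Low signal limits what can be said of genes under the filter level. Where every array of a group lay below it, folds, if given, are bounds.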
